A study of Mus musculus with 4 samples.

Results

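The Ibsp-positive, Col1a1-rich cells of the mouse molar tooth organ were examined in single-cell RNA-seq data, in which each barcode stands for a cell and each unique molecular identifier (UMI) for 1 captured RNA molecule. Barcodes with at least 1000 UMIs and under 10% mitochondrial UMIs were kept, and a cell was taken as a member when Ibsp, Sp7 and Bglap together had at least 4 UMIs, Ibsp had at least 1, Col1a1 had at least 10, Dspp had at most 1, and Epcam and Cdh1 had 0. By this rule 665 of 42164 kept barcodes were members, so they were chosen by their own UMI counts of Ibsp, Sp7, Bglap, Col1a1, Dspp, Epcam and Cdh1, and the levels of these genes are a description. All 4 libraries came from wild-type mice (genotype WTB6 in the labels, strain C57BL/6J in the study's methods): maxillary molars at E15.5 (E15 in the sample labels), mandibular molars at E15.5, maxillary molars at P1 and mandibular molars at P1, where the pups were collected at P0 or P1. Each library pooled 6 tooth organs, so each stage and jaw had 1 library, and no difference between stages or jaws could be checked against replicates.

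The members numbered 103 of 9679 kept barcodes in the E15.5 maxillary library (1.06%, exact 95% interval 0.869 to 1.29), 130 of 6582 in the E15.5 mandibular library (1.98%, 1.65 to 2.34), 231 of 16486 in the P1 maxillary library (1.4%, 1.23 to 1.59) and 201 of 9417 in the P1 mandibular library (2.13%, 1.85 to 2.45). In that order the libraries held 109723360, 86659227, 128812956 and 139873101 UMIs, and the members had medians of 11529, 17314, 12734 and 14248 UMIs per cell. All values listed for the 4 libraries below follow this order. A level is the sum of a gene's UMIs over the members of a library per 1000000 of those members’ UMIs (CPM), and every interval covers counting error only, since cells of 1 library are not replicates.

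The P1 libraries shared 7131 barcodes, while the other pairs of libraries shared 28 to 70. The shared barcodes were dropped from the P1 mandibular library, 6597 of them with kept quality. Of the dropped barcodes 32 passed the rule for members, and 29 of these carried the barcode of a P1 maxillary member, with a median log2 ratio of 2.07 of maxillary over mandibular UMIs. The P1 maxillary members kept for the analysis were barcodes found in both P1 libraries in 217 of 231 cases (93.9%), and only 14 had a barcode of their own. Which P1 library the 217 cells came from was not tested, and the P1 maxillary levels and P1 jaw ratios rest on this assignment. With the shared barcodes dropped from both libraries, these 14 cells were all that was left of the P1 maxillary members, and the ratios of named genes whose direction turned in them are listed in the closing section.

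Osteoblasts build bone by secreting a matrix of type I collagen and non-collagenous proteins and by driving its mineralization. Runx2 and then Sp7 (osterix) switch on this programme, Alpl supplies phosphate by removing it from inhibitors of mineralization, and Ibsp, Spp1 and Bglap encode bone sialoprotein, osteopontin and osteocalcin, which bind mineral. Around a tooth germ such cells form the alveolar bone. Odontoblasts, which lay down dentin inside the tooth, share Runx2, Bglap, Dmp1 and collagen with them and are set apart by Dspp.

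The marker check went with the osteoblast label in part. Runx2, which the rule did not use, was detected in 622 of 665 members, and its level was 1686, 1601, 1061 and 1058 CPM in the 4 libraries. In the other collagen I-rich cells (Col1a1 of at least 10 UMIs and no UMI of Ibsp, Sp7 or Bglap) it was 385, 171, 304 and 173 CPM, and in macrophages with C1q transcripts, taken as a measure of free RNA, it was 79.3, 9.92, 39.2 and 58.8 CPM. Sp7 had no UMI in 286 of 665 members and Bglap none in 557. Spp1 had no UMI in 545 members and Ifitm5, a membrane protein of mineralizing osteoblasts, none in 466. Members with at least 5 UMIs of Spp1 or of Ifitm5 had 1131, 1191, 849 and 955 CPM of Runx2. The rest of the members had 1924.5, 2088, 1125 and 1132 CPM. In each library Runx2 was thus lower in the members with these bone genes than in the rest. Barx1, a transcription factor of dental mesenchyme, was at 259, 95.5, 479 and 356 CPM in the members and 312, 223, 512 and 285 CPM in the other collagen I-rich cells. The members are therefore named here by the genes of the rule, and not as osteoblasts throughout.

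Bone sialoprotein and osteopontin lie in 1 cluster on chromosome 5 with the other genes of their family (mm10): Dspp at chr5:104170712-104180127, Dmp1 at chr5:104202613-104214102, Ibsp at chr5:104299171-104311469, Mepe at chr5:104325329-104338611 and Spp1 at chr5:104435118-104441050, all on the plus strand. Bglap lies at chr3:88383501-88384464 on the minus strand next to its copies Bglap2 (chr3:88377736-88378699) and Bglap3 (chr3:88368616-88372743), and since the copies are nearly identical their counts are uncertain. The 250 bases before the RefSeq start of Spp1 (GRCm38.p6, chr5:104434861-104435110, plus strand) and of Bglap (chr3:88384467-88384716, minus strand) are shown, since the UMIs of both genes sat in few of the members. Capitals mark the Runx motif AACCACA, searched on both strands (TGTGGTT on the other).
Spp1: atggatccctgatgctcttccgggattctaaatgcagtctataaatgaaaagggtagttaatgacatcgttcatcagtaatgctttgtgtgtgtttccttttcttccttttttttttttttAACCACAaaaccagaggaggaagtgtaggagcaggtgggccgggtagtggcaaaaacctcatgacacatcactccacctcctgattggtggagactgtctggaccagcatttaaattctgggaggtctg
Bglap: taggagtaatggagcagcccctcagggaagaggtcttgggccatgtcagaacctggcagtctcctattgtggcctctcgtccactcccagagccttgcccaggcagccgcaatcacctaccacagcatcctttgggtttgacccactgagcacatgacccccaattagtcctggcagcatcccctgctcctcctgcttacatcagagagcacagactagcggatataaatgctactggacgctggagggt
The motif occurred once before Spp1, 129 bases before the start on the plus strand, and not in the window of Bglap. Nor did the motif occur in the windows of Ibsp and Ifitm5, which are not shown. It occurred in 1444 of 32851 promoter windows of this length (4.4%), and a match is a description, not a binding site.

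Ibsp, which the rule used, varied over orders of magnitude from cell to cell, whereas Sp7 reached at most 9, 13, 13 and 10 UMIs. The median number of Ibsp UMIs per member was 12, 21.5, 13 and 7 in the 4 libraries, and the highest was 556, 3777, 488 and 2116. The 10 members with the most Ibsp held 53.9%, 65.8%, 34.8% and 66.3% of its UMIs. Its summed level, of which few cells held a large part, was 2314, 7102, 2147 and 2976 CPM. Col1a1, the main chain of bone collagen, was at 3773, 6331, 4645 and 8134 CPM, against 4234, 4097, 3229 and 6141 CPM in the other collagen I-rich cells. At the edge of the rule, members with 4 UMIs of Ibsp, Sp7 and Bglap together (10, 12, 18 and 24 cells) had 1536, 1658, 384 and 692 CPM of Runx2, and excluded cells with 3 UMIs (17, 12, 37 and 43 cells) had 1172, 923, 616 and 679 CPM. Runx2 was higher inside the limit in both E15.5 libraries, lower inside it in the P1 maxillary library and about equal in the P1 mandibular one.

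**Figure D1:**
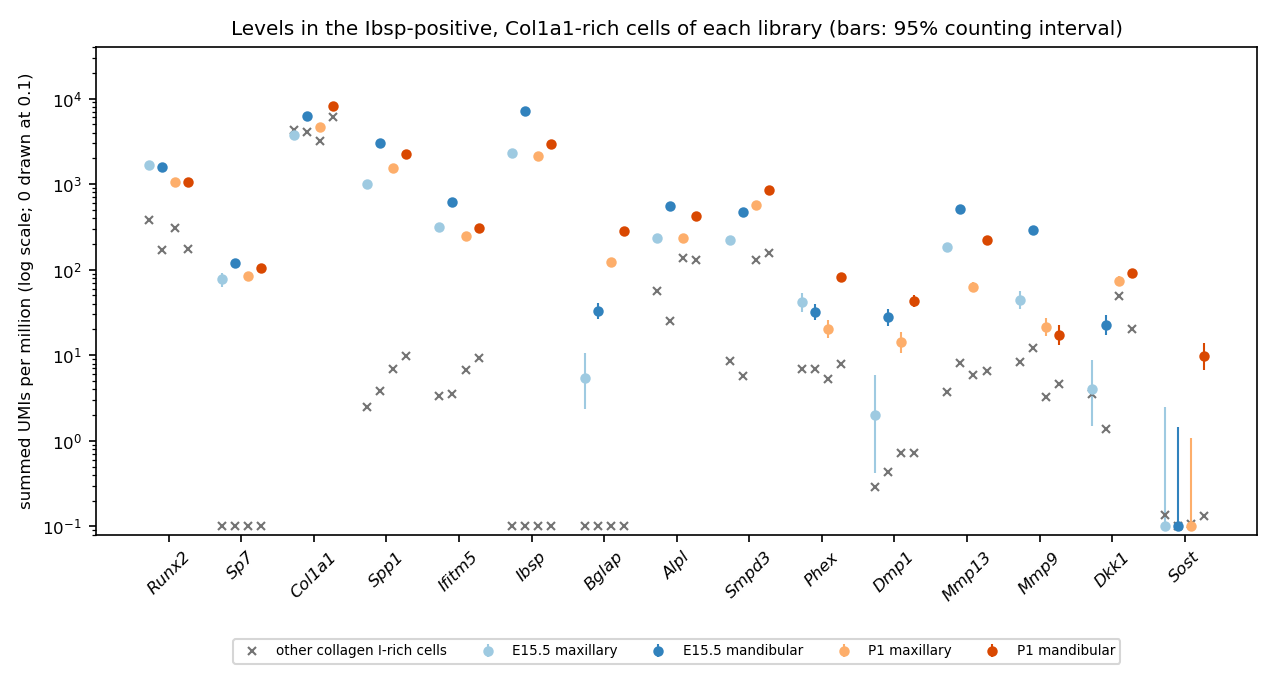
Levels of 15 bone and Wnt pathway genes in the members of each library, in CPM on a log axis, with 95% counting intervals and crosses for the other collagen I-rich cells of the same library. Runx2, Spp1, Ifitm5 and Mmp13 lie above the crosses in all 4 libraries, whereas Ibsp, Sp7 and Bglap do so by the rule and Sost has UMIs only in the P1 mandibular members.

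Spp1 and Ifitm5 each marked a minority of the members. With 5 UMIs as the limit, 73 of 665 members were high in Spp1, 123 in Ifitm5 and 19 in both, which is 26.0% of the Spp1-high and 15.4% of the Ifitm5-high members. Over all members 18.5% were high in Ifitm5 and 11.0% in Spp1. These shares pool libraries that differ: in the E15.5 mandibular library 6 members were high in both, of 27 high in Spp1 and 33 high in Ifitm5 among 130. Whether the genes went together or apart was not tested. The remaining 488 members (73.4%) were high in neither. In the 4 libraries 19.4%, 41.5%, 17.3% and 31.3% of the members were high in at least 1 of the pair, so the mandibular share was above the maxillary share at both stages. The limit was not adjusted for depth, and members high in at least 1 had medians of 22785, 21387, 19731.5 and 20915 UMIs per cell. Those high in neither had 10468, 14123, 12217 and 12878.5. The part of depth in the jaw difference was not tested, and at P1 the difference rests on the assignment of the shared barcodes. The 10 members with the most Spp1 held 99.9%, 84.7%, 99.8% and 92.7% of its UMIs. Its summed level of 1006, 3044, 1534 and 2259.5 CPM came from those cells, with 2.49, 3.83, 6.85 and 9.69 CPM in the other collagen I-rich cells and 20.2, 185, 42.5 and 148 CPM in macrophages. Ifitm5 was at 317, 619, 247 and 307 CPM, with 3.33, 3.48, 6.78 and 9.23 CPM in the other collagen I-rich cells.

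**Figure D2:**
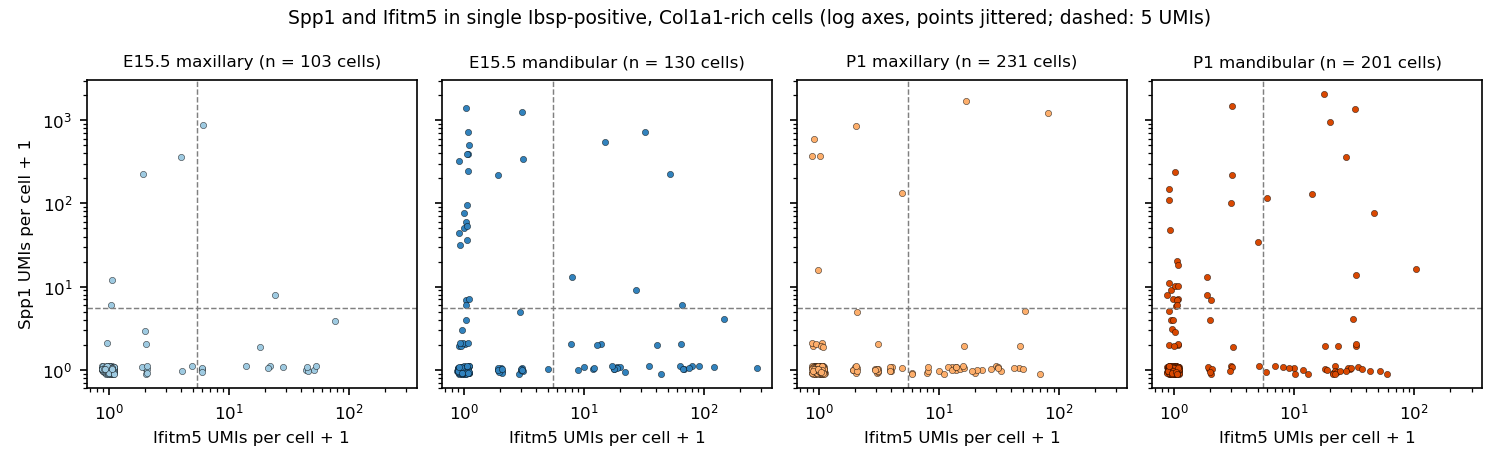
UMIs of Ifitm5 (x axis) and of Spp1 (y axis) in each of the 665 members, on log axes of UMIs plus 1, 1 panel per library, with dashed lines at the limit of 5 UMIs. The points beyond a line lie mostly beyond only 1 of them, and 2, 6, 2 and 9 members lie beyond both lines.

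The members split into 4, 6, 5 and 7 subclusters in the 4 libraries (7, 7, 9 and 8 at a finer resolution). The subclusters are described by number and leading genes, and since the same counts formed them, their genes are no separate finding. Subcluster 3 of the E15.5 mandibular members (21 cells) had Spp1 among its leading genes, with 15642 CPM against 902 CPM in the other members of the library, and held 2119.9 CPM of Mmp13, a collagenase of bone and hypertrophic cartilage. At P1 Spp1 and Mmp13 were among the leading genes of subcluster 5 of the maxillary members (24 cells, Spp1 at 13106 CPM and Mmp13 at 539 CPM) and of subcluster 1 of the mandibular members (47 cells, 9035 and 889 CPM). In these P1 subclusters Col2a1, the main collagen of cartilage, was a leading gene too, at 149 and 366 CPM, with Acan of cartilage ranked first in the mandibular one. Col2a1 had UMIs in 8 of the 24 maxillary and 12 of the 47 mandibular cells, and 1 mandibular cell held 55.4% of its UMIs there and 1 held 55.3% of those of Acan, which had UMIs in 9 cells. Of the 24 maxillary cells 7 were high in Spp1 and 12 in Ifitm5, and of the 47 mandibular cells 24 and 16. The P1 mandibular one also held 8854 CPM of Ibsp and 20852 CPM of Col1a1.

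At E15.5 Ifitm5 and cartilage genes were among the leading genes of the same subclusters, though part of their cells had UMIs of the cartilage genes. Subcluster 3 of the E15.5 maxillary members (18 cells) had 1066 CPM against 25.3 CPM elsewhere for Ifitm5 and 788 CPM against 14.1 CPM for Col2a1. Subcluster 2 of the E15.5 mandibular members (33 cells) had 1852 CPM against 55.9 CPM for Ifitm5 and 677 CPM against 29.7 CPM for Col2a1, with Ibsp at 17134 CPM. Ifitm5 had UMIs in 16 of the 18 maxillary and 28 of the 33 mandibular cells, and Col2a1 in 7 and 17, with 45.6% and 20.3% of the Col2a1 UMIs in 1 cell. Col9a1, Acan and Hapln1 of cartilage and Lgals3 were among the leading genes of both, and Slc13a5, a citrate carrier of bone-forming cells, was at 275 and 482 CPM. Over all members the summed chondrocyte markers were 618, 728, 323 and 554 CPM, with Col2a1 as the most abundant at E15.5 and Hapln1 at P1, and their part in these results was not tested. Other E15.5 members lay in maxillary subclusters 1 and 2 (41 and 35 cells) and mandibular 1, 4 and 6 (39, 18 and 5 cells). Of these 0, 4, 4, 0 and 0 were high in Spp1 and 0, 2, 4, 0 and 1 in Ifitm5. Their summed markers of dental mesenchyme and follicle were 2013, 1969, 892, 2604.5 and 1235 CPM, against 588 and 458 CPM in the maxillary and mandibular subclusters led by cartilage genes.

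At P1 a further set had Sct, Gchfr and Col24a1, a collagen of the skeleton, among its leading genes, with much Bglap and little Ibsp. Subcluster 4 of the P1 maxillary members (26 cells) had 1855 CPM against 125 CPM elsewhere for Col24a1 and 611 CPM of Bglap, and subcluster 5 of the P1 mandibular members (20 cells) had 2588 CPM against 157 CPM and 768 CPM. Their median Ibsp counts were 2 and 1 UMIs per cell. Dkk1, an inhibitor of Wnt signalling, was at 369.8 and 451 CPM, and the Wnt inhibitor Notum at 315 and 418 CPM. The leading genes Sct, Col24a1 and Gchfr were also high in the Dspp-high cells of these libraries (at least 10 UMIs of Dspp and of Col1a1), where Col24a1 stood at 2558 and 2104 CPM and Bglap at 3974 and 5102 CPM.

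In the remaining P1 subclusters the members with at least 5 UMIs of Spp1 or of Ifitm5 numbered 0 to 5 for each gene. The large subclusters 1 of the maxillary (79 cells) and 2 of the mandibular members (44 cells) had Lrrc4c among their leading genes and held 1016 and 969 CPM of Rspo2, which strengthens Wnt signalling, with 568 and 459 CPM of Barx1. In the mandibular one Emcn and Flt1 of endothelium ranked first, from 6 and 4 cells. Subclusters 2 of the maxillary (66 cells) and 4 of the mandibular members (26 cells) held 9262 and 10665 CPM of Igfbp5, which binds insulin-like growth factors, and 2684 and 2562 CPM of Runx2, and Mrc1 and C1qa of macrophages, from 1 cell, were among the leading genes of the mandibular one. Subcluster 6 of the P1 mandibular members (19 cells) had 1788 CPM of Sostdc1 and 2019 CPM of Smoc2, a calcium-binding matrix protein of the dental follicle, and subcluster 7 (17 cells) had 1684 CPM of Alpl. Top2a of dividing cells marked subclusters of 9, 14, 36 and 28 cells, with 684, 716, 1070.2 and 963 CPM.

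**Figure D3:**
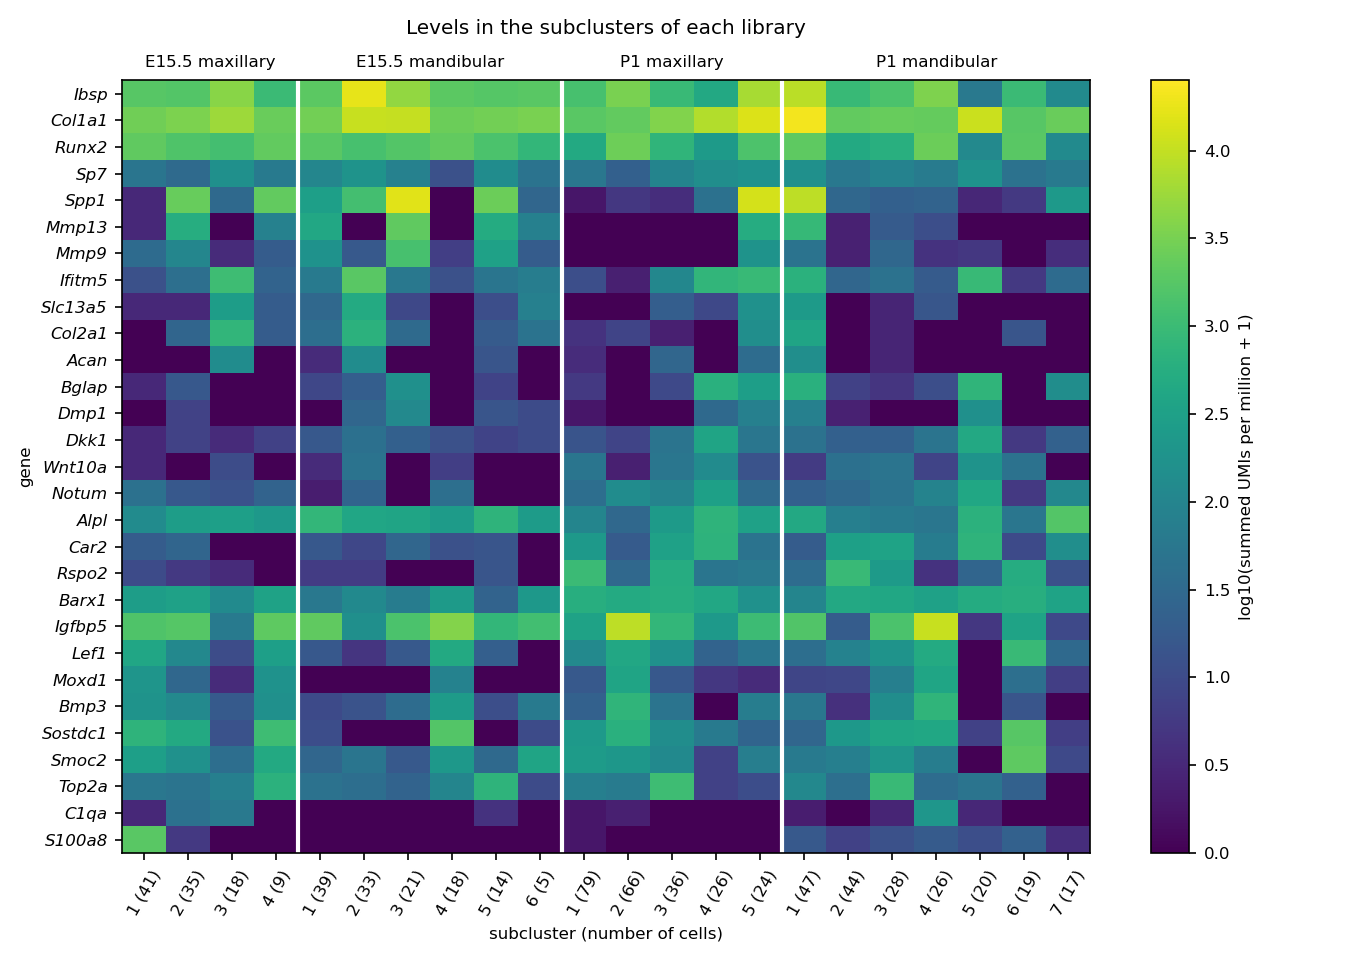
Levels of 29 genes (rows) in the 22 subclusters (columns, number of cells in brackets) of the members of each library, as log10 of CPM plus 1. In the E15.5 mandibular members Spp1 is highest in subcluster 3 and Ifitm5 and Col2a1 in subcluster 2, whereas at P1 Spp1, Mmp13 and Col2a1 are highest in 1 subcluster of each jaw and Bglap and Dkk1 in another.

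Of 12 osteoblast transcription factors, Dlx5, Dlx3 and Msx2 were at least 2-fold higher at P1 than at E15.5 in both jaws and none was lower (Dlx5 in the mandibular members had a log2 ratio of -0.56 after thinning each barcode to 3000 UMIs), where 5.29% of 7783 genes were higher and 4.66% lower in the maxillary and 8.75% of 7566 higher and 3.12% lower in the mandibular members. A gene was compared where it had 20 CPM or more in the higher group, and a 2-fold difference was counted without a test. The same limits hold for all counts of genes below, and the shares of all genes given here apply to each count between the stages. Runx2 had log2 ratios of P1 over E15.5 of -0.67 (95% interval -0.74 to -0.59) in the maxillary and -0.60 (-0.66 to -0.53) in the mandibular molar, so it was somewhat lower at P1 in both. Msx2, which answers to BMP signals, was at 1.35, 3.52, 92.0 and 85.9 CPM and Dlx3, a factor of bone and tooth, at 4.72, 9.40, 74.1 and 70.1 CPM. Both were low in the E15.5 members, and the other collagen I-rich cells held 0.812, 0.897, 101 and 57.6 CPM of Msx2 and 1.12, 1.03, 82.0 and 46.5 CPM of Dlx3. Mef2c, an activator of Sost, was at 412, 654, 243 and 363 CPM.

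Among 22 bone matrix genes, Col24a1, Bglap, Bglap2, Omd and Dcn were at least 2-fold higher at P1 in both jaws. Lower were Mgp in both jaws, Col5a1 in the maxillary (0.47 in the 14 P1 maxillary cells left without shared barcodes) and Ibsp in the mandibular members, and the median log2 ratio of the list was -0.11 over 19 compared genes in the maxillary and -0.16 over 20 in the mandibular members (-0.02 and 0.06 over all genes compared). The rule used Ibsp, Bglap and Col1a1 of this list, so their ratios between the stages are a description, and Bglap2 is nearly identical to Bglap. Bglap stood at 5.40, 32.9, 123 and 282 CPM, with 1 cell holding 60.7% of its UMIs in the E15.5 mandibular library. The members high in Ifitm5 lay in different subclusters at the stages. At E15.5, 14 of 16 maxillary and 26 of 33 mandibular ones were in the subclusters led by cartilage genes. At P1, 17 of 34 and 20 of 40 were in the subclusters with Sct and Col24a1 among their leading genes. Sct and Col24a1 were also high in Dspp-high cells, whereas other leading genes of the maxillary one, such as Grm8 and Mamdc2, were lower there. Levels at E15.5 and P1 within the members high in Spp1 or Ifitm5, given here and below, therefore come from different subclusters. In these members Bglap at E15.5 and P1 was 15.7 and 508 CPM in the maxillary and 57.0 and 649 CPM in the mandibular molar. Col24a1 was at 146, 155, 370.4 and 510.0 CPM, and the stage difference was present in the members high in Spp1 or Ifitm5 (179.6 and 1255 CPM in the maxillary and 198 and 1127 CPM in the mandibular molar) but had the opposite direction in the rest (132 and 103 CPM in the maxillary and 104 and 70.7 CPM in the mandibular molar). Mgp (matrix Gla protein), an inhibitor of mineralization, was at 229, 357, 22.9 and 119 CPM, with log2 ratios of -3.33 (95% interval -3.70 to -2.97) in the maxillary and -1.59 (-1.76 to -1.41) in the mandibular molar. It was lower at P1 both in the members high in Spp1 or Ifitm5 and in the rest. Ibsp had log2 ratios of -0.11 (95% interval -0.17 to -0.05) in the maxillary and -1.25 (-1.29 to -1.22) in the mandibular molar, and Spp1 of 0.61 (95% interval 0.53 to 0.69) in the maxillary and -0.43 (-0.48 to -0.38) in the mandibular molar. In the maxillary libraries 1 cell held 58.6% of the Spp1 UMIs at E15.5 and 1 held 32.5% at P1. Without the richest cell of the library with the higher level, the ratios of Spp1 were 0.05 and -0.15 and those of Ibsp 0.13 and -0.96, so 1 cell set much of the ratio of Spp1 in each jaw and the direction of Ibsp in the maxillary molar.

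Of 12 genes for mineralization, Car2 was the only one at least 2-fold higher at P1 in both jaws. Car2 (carbonic anhydrase 2) was at 13.5, 13.3, 254 and 250.2 CPM, with log2 ratios of 4.23 (95% interval 3.60 to 4.95) in the maxillary and 4.23 (3.74 to 4.77) in the mandibular molar, and the other collagen I-rich cells also stood at 27.1, 10.8, 161 and 140.4 CPM. Smpd3, a sphingomyelinase needed for bone mineral, was at 221, 474, 564 and 849 CPM, with log2 ratios of 1.35 (95% interval 1.18 to 1.52) in the maxillary and 0.84 (0.74 to 0.94) in the mandibular molar. Its level was above that of the other collagen I-rich cells, 8.53, 5.71, 131 and 157 CPM, in all 4 libraries. Alpl was at 235, 549, 232 and 418 CPM and so higher in the mandibular members at both stages. Phex, a peptidase of phosphate balance, had log2 ratios of -1.05 (95% interval -1.56 to -0.53) in the maxillary and 1.34 (0.98 to 1.71) in the mandibular molar. Without the member richest in Phex UMIs at E15.5 the maxillary ratio was 1.57. In the members high in Spp1 or Ifitm5 its levels at E15.5 and P1 were 8.98 and 74.7 CPM in the maxillary and 40.4 and 180.1 CPM in the mandibular molar, that is, higher at P1 in both jaws, but from the different subclusters named above, and Dspp-high cells held 1708 and 2006 CPM.

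Of 24 genes that fold, modify and cross-link collagen, 1 was at least 2-fold higher and 2 lower at P1 of 22 compared in the maxillary and of 23 in the mandibular members. The shares over all genes compared were 5.29% higher and 4.66% lower in the maxillary and 8.75% and 3.12% in the mandibular members. Serpinf1, an inhibitor of angiogenesis whose loss causes brittle bone, was at least 2-fold higher at P1 in both jaws at 189.7, 219.7, 509.9 and 758 CPM. Loxl2, which cross-links collagen, was lower in both jaws at 140.4, 177, 64.2 and 69.8 CPM, Lox was lower in the maxillary (0.15 in the 14 P1 maxillary cells) and Ifitm5 in the mandibular members, and the remaining genes compared were within 2-fold. Serpinh1, the collagen chaperone, was at 1379, 1772, 850 and 985 CPM. The medians of the list were -0.14 over 22 genes and -0.32 over 23. Genes of the secretory pathway had medians of -0.47 in both jaws over 21 genes, with Sdf2l1 lower by at least 2-fold in both and Hsp90b1 and Manf in the mandibular members.

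Of the transcripts of osteocytes, the cells buried in bone, Sost, Dmp1 and Mepe were low. Sost, which encodes the Wnt inhibitor sclerostin, had 33 UMIs in 3 members of the P1 mandibular library, 20 of them in 1 cell, and 0 UMIs in the members of the other libraries. Dmp1, a matrix protein of osteocytes and odontoblasts, was at 2.02, 27.8, 14.2 and 43.4 CPM, and 1604 and 1178 CPM in the Dspp-high cells of the P1 libraries. Mepe was at 0, 2.35, 2.89 and 0 CPM. Of the 13 osteocyte genes found, 2 of 6 compared were higher and 2 lower at P1 in the maxillary members, and 4 of 9 were higher and 0 lower in the mandibular ones. These included Dkk1, higher in both jaws, and Phex, lower in the maxillary and higher in the mandibular members. Dkk1, Phex and Dmp1 are also in the list of odontoblast genes. Among all genes compared, 5.29% were higher and 4.66% lower in the maxillary and 8.75% and 3.12% in the mandibular members. Genes that steer osteoclasts were also low, with Tnfsf11 (RANKL) at 9.45, 18, 2.60 and 10.7 CPM and its decoy receptor Tnfrsf11b at 6.75, 13.7, 20.8 and 15.2 CPM, while Sema3a, which protects bone, was at 381, 475, 259 and 275 CPM. Of 9 such genes, 6 were compared in the maxillary members (Tnfrsf11b higher, and Ccl2 lower but at 0.26 in the 14 P1 maxillary cells without shared barcodes) and 4 in the mandibular ones, with 0 beyond 2-fold. Mmp9 was at 44.5, 287, 21.4 and 17.2 CPM, Ocstamp and Dcstamp of osteoclast fusion were at 0 in all 4 libraries, and Ctsk, the most abundant of the 8 osteoclast markers in 3 of the libraries, reached 99.2, 109, 115 and 109.7 CPM.

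In the Wnt pathway, Wnt10a, Wnt6, Dkk1, Wif1, Notum and Rspo2 were at least 2-fold higher at P1 in both jaws, and Sfrp2 was lower in both. In all, 6 of 29 compared genes were higher and 3 lower in the maxillary members (median log2 ratio -0.01), and 16 of 28 were higher and 2 lower in the mandibular ones (median 1.24). Over all genes compared, 5.29% were higher and 4.66% lower in the maxillary and 8.75% and 3.12% in the mandibular members. The ligand Wnt10a was at 3.37, 15.7, 47.8 and 46.7 CPM and Wnt6 at 6.75, 3.92, 71.5 and 73.7 CPM, with log2 ratios for Wnt10a of 3.82 (95% interval 2.57 to 5.46) in the maxillary and 1.57 (1.07 to 2.11) in the mandibular molar. The part of free RNA in the levels of Wnt10a, Wnt6 and Dkk1 was not tested. After thinning the mandibular ratio of Wnt10a was -1.78, and in the 14 P1 maxillary cells without shared barcodes the maxillary ratio of Wif1 was -0.59, so these directions turned. Dkk1 was at 4.05, 22.7, 74.1 and 90.6 CPM, with log2 ratios of 4.19 (95% interval 3.05 to 5.65) in the maxillary and 2.0 (1.59 to 2.43) in the mandibular molar. In the members high in Spp1 or Ifitm5, Dkk1 at E15.5 and P1 was 2.24 and 252 CPM in the maxillary and 33.2 and 206 CPM in the mandibular molar, and in the rest 4.83 and 20.4 CPM in the maxillary and 10.3 and 8.14 CPM in the mandibular molar. The P1 level was thus higher in the former, whose P1 cells were in part those of the subclusters with Sct and Col24a1 among their leading genes. Rspo2 showed the other arrangement, at 5.79 and 588 CPM in the maxillary and 2.57 and 459.9 CPM in the mandibular molar in the members low in both and 2.24 and 61.0 CPM in the maxillary and 6.49 and 21.4 CPM in the mandibular molar in those high in Spp1 or Ifitm5. Its level was 4.72, 4.70, 466 and 278 CPM over all members and 30.8, 38.1, 353 and 148 CPM in the other collagen I-rich cells. Wif1, which binds and blocks Wnt ligands, was at 226, 184, 772 and 870.4 CPM and was higher at P1 in both sets of members. Lef1, a nuclear mediator of Wnt signals, was at 192, 43.9, 172 and 165 CPM, and its log2 ratios were -0.15 (95% interval -0.36 to 0.06) in the maxillary and 1.91 (1.62 to 2.22) in the mandibular molar. The E15.5 mandibular library was the one apart from the other 3.

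Among BMP, hedgehog, FGF, hormone and growth factor genes, Bmp2, Id1 and Smad6 were at least 2-fold higher and Bmp6, Pth1r and Igf2 at least 2-fold lower at P1 in both jaws (3 higher and 3 lower of 23 compared in the maxillary, 7 and 4 of 26 in the mandibular members). In the 14 P1 maxillary cells without shared barcodes the ratio of Id1 was -0.66. Pth1r, the receptor for parathyroid hormone and PTHrP, was at 335, 519.6, 103 and 148 CPM, with log2 ratios of -1.70 (95% interval -1.90 to -1.50) in the maxillary and -1.81 (-1.96 to -1.66) in the mandibular molar. At E15.5 it stood at 781 and 763 CPM in the maxillary and mandibular members high in Spp1 or Ifitm5, and at P1 at 254 and 264 CPM. Igf2, a fetal growth factor, was at 536, 876, 189.6 and 289 CPM, and the neighbouring imprinted RNA H19 at 863, 1282, 233 and 212 CPM. Both also stood lower at P1 in the maxillary part of the other collagen I-rich cells, with Igf2 at 837, 1277, 514 and 1528 CPM, where the mandibular part went the other way for Igf2. Bmp6 was at 54.0, 95.5, 15 and 15.2 CPM and Bmp2 at 19.6, 25.5, 86.0 and 85.3 CPM.

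The genes with the largest stage difference common to both jaws were ranked by the smaller of the jaws' ratios. The 12 highest at P1 were Gldn, Sorcs3, Aox3, Rspo2, Sp9, Plac8, Rspo4, Sp6, Dlx6os1, Nebl, Csmd1 and Ambn. Gldn was at 1.35, 0.392, 170.2 and 106 CPM, with log2 ratios of 6.98 (95% interval 5.12 to 10.03) in the maxillary and 8.08 (5.59 to 13.39) in the mandibular molar, and Sp6, a transcription factor of teeth related to Sp7, at 0, 0.392, 55.9 and 74.6 CPM. Ambn, the enamel and tooth matrix gene ameloblastin, was at 2.70, 1.57, 68.3 and 103 CPM in the members and 374 and 376 CPM in the Dspp-high cells, and at P1 the macrophages held 12.9 and 48.6 CPM. The 12 lowest were Pdzrn4, Fads3, C430049B03Rik, H19, Ndufa4l2, Bmp6, Bnc2, Pth1r, Maf, Gm47283, Npnt and Cdkn1c. In the 14 P1 maxillary cells without shared barcodes Ndufa4l2 had a maxillary ratio of 0.44 and Bnc2 of 0.68, the opposite direction. Pdzrn4 was at 764, 1008, 90.6 and 172 CPM, with log2 ratios of -3.08 (95% interval -3.26 to -2.89) in the maxillary and -2.55 (-2.69 to -2.42) in the mandibular molar, and Cdkn1c, a brake on cell division, at 1554, 1665, 481 and 543 CPM. Npnt (nephronectin), an integrin ligand of the osteoblast matrix, was at 175, 156, 55.6 and 43.4 CPM.

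**Figure D4:**
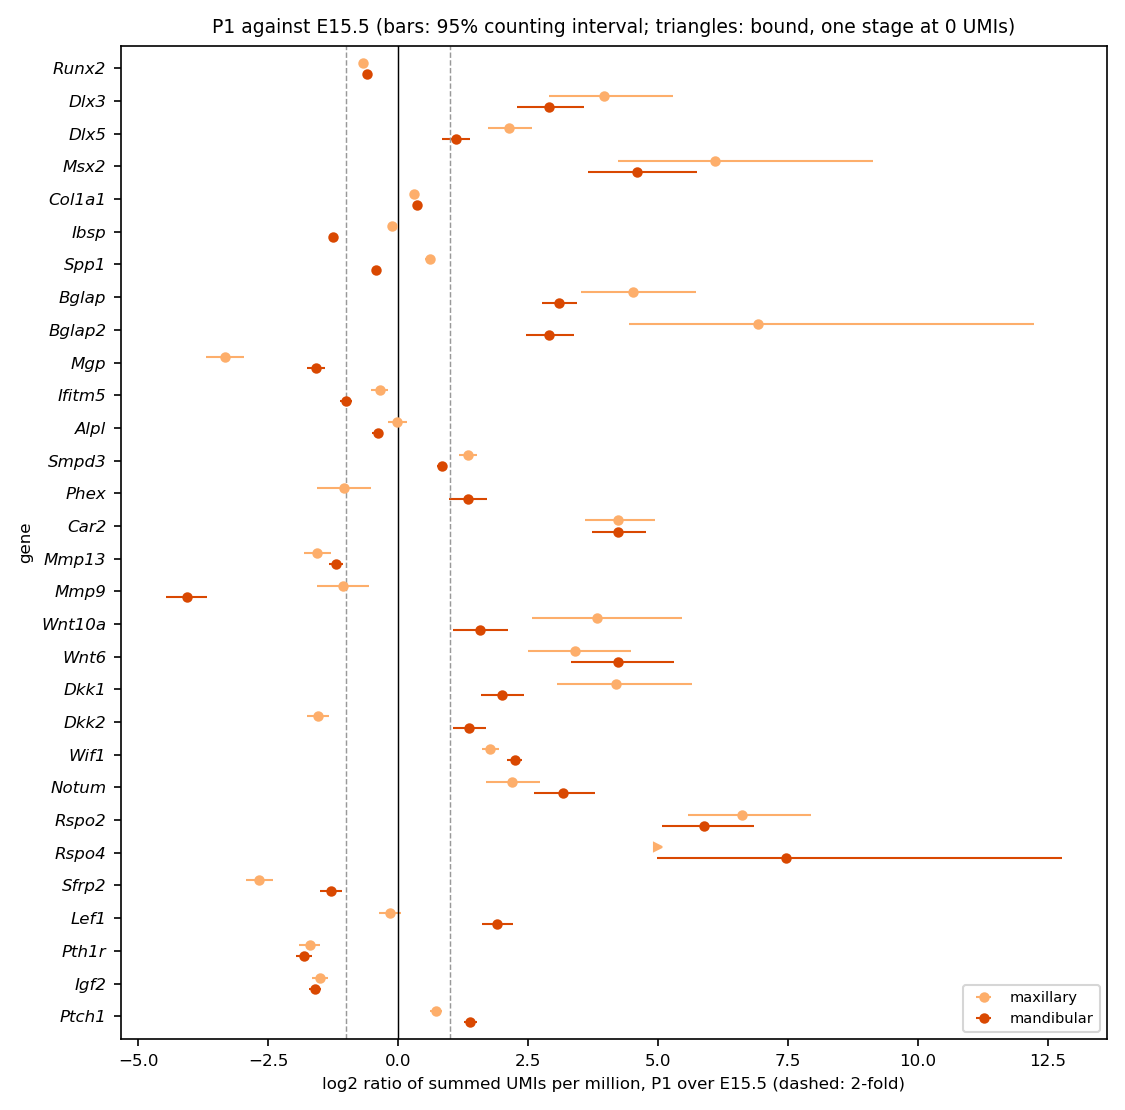
Log2 ratios of P1 over E15.5 in the members, for 30 genes in the maxillary (light) and mandibular molar (dark), with 95% counting intervals, a triangle for a bound where 1 stage had 0 UMIs, and dashed lines at 2-fold. Msx2, Bglap (a gene of the rule), Car2 and Rspo2 lie far to the right in both jaws, and Mgp and Pth1r to the left. Phex and Dkk2 lie on opposite sides in the jaws.

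The count of genes that differed between the jaws was larger at E15.5 than at P1 over all members, but not in the cells left without shared barcodes or after thinning. At E15.5, 6.31% of 7517 genes were at least 2-fold higher in the maxillary and 1.9% in the mandibular members, and at P1 0.888% and 1.49% of 7542. These were 474 and 143 genes at E15.5 and 67 and 112 at P1. With shared barcodes dropped from both P1 libraries, which left 14 P1 maxillary cells, the P1 counts were 1025 and 1181, and after thinning the counts were 693 and 403 at E15.5 and 540 and 843 at P1. Of the genes that mark the jaw of origin, Hand2, a factor of the lower jaw, was at 1.35, 24.7, 0 and 11.9 CPM and Pou3f3, a factor of the upper jaw, at 31.7, 1.17, 34.7 and 3.86 CPM. Pou3f3 had log2 ratios of maxillary over mandibular of 4.76 (95% interval 3.12 to 7.08) at E15.5 and 3.17 (2.34 to 4.12) at P1. Hand2 had -4.19 (95% interval -7.27 to -2.28) at E15.5 and at most -3.78 at P1, the last as a bound because it had 0 UMIs in the P1 maxillary members. Pitx1, a factor of the lower jaw, was at 12.8, 29.4, 1.74 and 19 CPM. Of the 25 jaw identity genes, 9 of 18 compared were higher in the maxillary and 4 in the mandibular members at E15.5, and 2 of 13 and 0 at P1. Genes of dental mesenchyme, a list that shares Pax9, Barx1, Lhx6, Lhx8, Dlx1 and Dlx2 with the former, were higher in the E15.5 maxillary members for 10 of 17 genes, none was lower, and 2 of 15 were higher at P1. Pax9 of this list was at 85.0, 9.01, 64.5 and 49.0 CPM, lowest in the E15.5 mandibular members. In the other collagen I-rich cells Pax9 was at 164, 42.2, 142 and 44.2 CPM.

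More bone matrix genes were higher in the mandibular than in the maxillary members at both stages, though at P1 several of them turned without the shared barcodes. At E15.5, 0 of 19 compared were at least 2-fold higher in the maxillary and 6 in the mandibular members (Col11a2, Col22a1, Bglap, Ibsp, Spp1 and Fn1; median log2 ratio -0.61), and at P1 0 and 5 of 20 (Col1a2, Col11a2, Col22a1, Bglap and Mgp; median -0.68). The rule chose members by Ibsp and Bglap, and without these genes 4 were mandibular at each stage. Of mineralization genes 3 were mandibular at each stage (Alpl, Smpd3 and Dmp1 at E15.5, and Ank, Phex and Dmp1 at P1) and 0 maxillary. The shares of all genes compared were 6.31% higher in the maxillary and 1.9% in the mandibular members at E15.5, and 0.888% and 1.49% at P1. Col11a2, a chain of type XI collagen, was at 66.8, 159, 39.1 and 125 CPM, with log2 ratios of -1.25 (95% interval -1.58 to -0.93) at E15.5 and -1.68 (-1.97 to -1.40) at P1. Mmp13 was at 184, 508, 62.8 and 223 CPM, with log2 ratios of -1.46 (95% interval -1.66 to -1.27) at E15.5 and -1.83 (-2.05 to -1.61) at P1. In subcluster 1 of the P1 mandibular members 1 cell held 47.4% of the Mmp13 UMIs, so a large part of the P1 mandibular level came from 1 cell. With each cell weighed alike the E15.5 ratio of Mmp13 was 0.42 and that of Bglap 0.06, and without likely doublets the P1 ratio of Col22a1 was 2.37, so these directions turned. In the 14 P1 maxillary cells without shared barcodes the P1 ratios turned to 1.49 for Mmp13, 1.15 for Col11a2, 1.07 for Col22a1, 1.19 for Col1a2 and 0.092 for Dmp1. Ibsp differed by -1.62 (95% interval -1.67 to -1.56) at E15.5 and -0.47 (-0.51 to -0.43) at P1. The mandibular members also held the larger share of cells high in Spp1 or Ifitm5, by a limit not adjusted for depth. More such cells cannot be told apart from more RNA per cell in these sums. Within the cells high in Spp1 or Ifitm5, Ibsp was at 4362 and 11547 CPM in the maxillary and mandibular members at E15.5 and at 3442 and 5195 CPM at P1. These summed levels were higher in the mandibular members at both stages, but at P1 9 mandibular cells high in both genes held 5663 of the 7270 Ibsp UMIs. In the P1 cells high in Ifitm5 alone (32 maxillary and 31 mandibular) Ibsp was at 2479 and 952 CPM, the other direction. In those high in Spp1 alone (6 and 23 cells) it was at 1644 and 2003 CPM. In the members high in neither gene Ibsp was at 1434 and 1829 CPM at E15.5 and at 1755 and 1397 CPM at P1. There the mandibular level was the higher one at E15.5 and the lower one at P1.

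Wnt pathway genes leaned to the maxillary members at E15.5, with 12 of 26 compared genes at least 2-fold higher in the maxillary and 2 in the mandibular members (median 0.84), and 0 of 28 either way at P1. Of all genes compared at E15.5, 6.31% were higher in the maxillary and 1.9% in the mandibular members. Dkk2 was at 279, 42.3, 95.5 and 109 CPM, Axin2, a target of Wnt signalling, at 53.3, 11.0, 52.4 and 30.9 CPM and Lef1 at the levels above. Lef1 at E15.5 was at 272 and 87.3 CPM in the maxillary and mandibular members low in Spp1 and Ifitm5, and at 4.49 and 7.22 CPM in those high in them. The 8 genes highest in the maxillary members at both stages were Cadm2, Lrrtm4, Clstn2, Tenm2, Ncam2, Fam189a1, Pthlh and Cntn6, of which Tenm2 and Cntn6 had P1 ratios of -0.89 and -0.74 in the 14 P1 maxillary cells without shared barcodes. Cadm2 was at 115, 17.2, 133 and 17.2 CPM, and 120.4, 39.1, 148 and 19.6 CPM in the other collagen I-rich cells. Pthlh, which encodes the hormone PTHrP of tooth eruption, was at 59.4, 5.09, 69.2 and 28.2 CPM, with log2 ratios of 3.54 (95% interval 2.70 to 4.51) at E15.5 and 1.29 (0.94 to 1.65) at P1. The 8 lowest were Gpx3, Col22a1, Adam12, Nav3, Lifr, Mmp13, Col11a2 and Plxna2, and 4 of them turned at P1 in those cells, Adam12 to 0.45 and Col22a1, Mmp13 and Col11a2 to the values above. Gpx3, a secreted peroxidase, was at 37.1, 349, 13.6 and 104 CPM, with log2 ratios of -3.23 (95% interval -3.65 to -2.84) at E15.5 and -2.93 (-3.40 to -2.49) at P1, and Lifr, the receptor of leukaemia inhibitory factor, at 32.4, 92.8, 29.2 and 95.7 CPM.

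**Figure D5:**
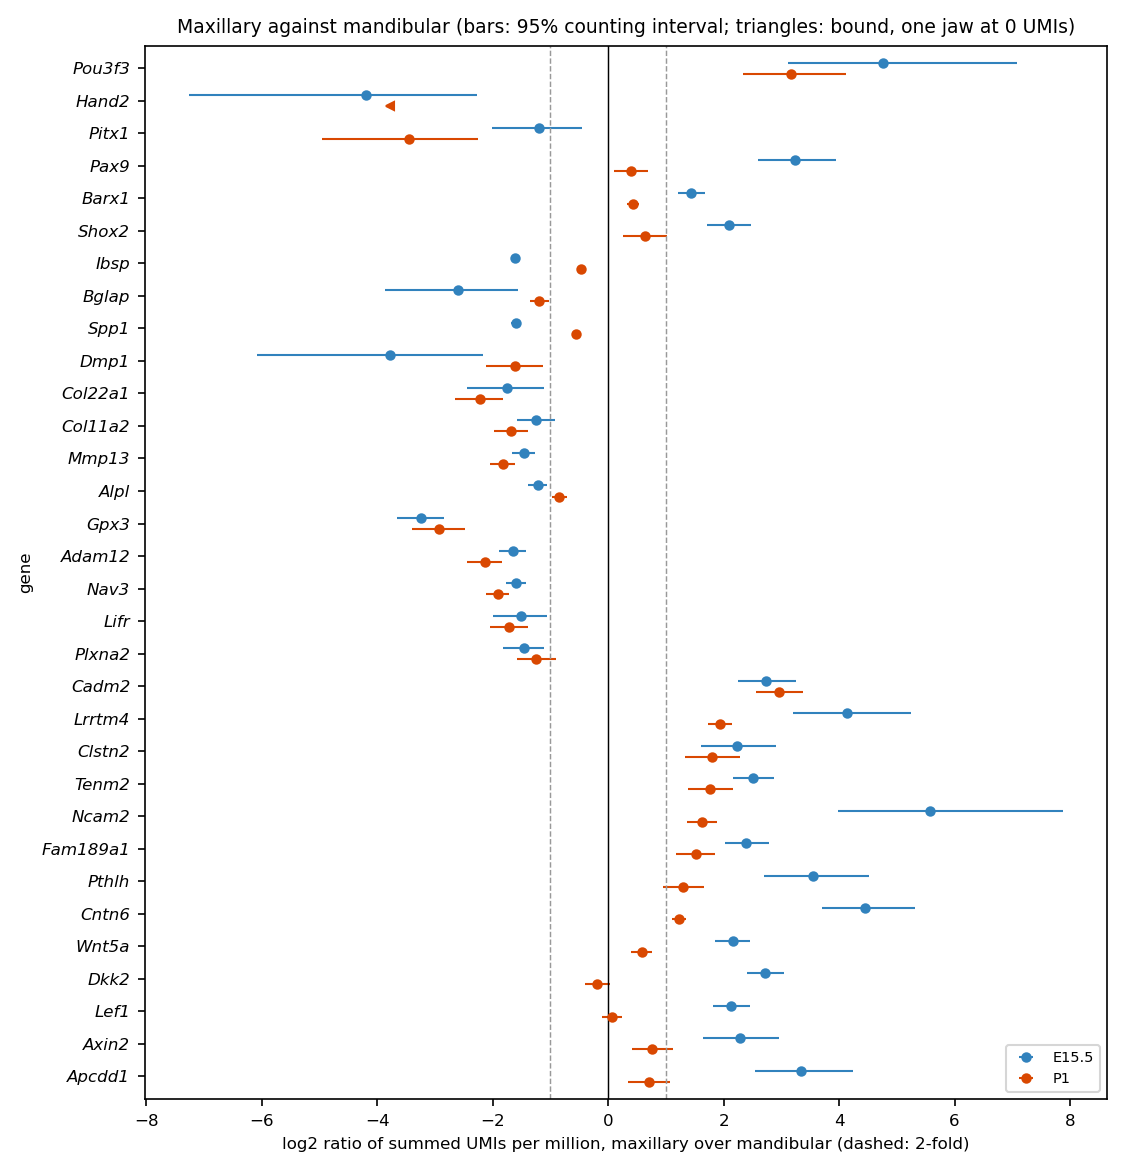
Log2 ratios of maxillary over mandibular members, for 32 genes at E15.5 (blue) and P1 (orange), with 95% counting intervals, a triangle for a bound where 1 jaw had 0 UMIs, and dashed lines at 2-fold. Pou3f3 and Cadm2 lie to the right and Hand2, Gpx3 and Mmp13 to the left at both stages, and Pax9, Dkk2 and Lef1 are beyond 2-fold at E15.5 alone.

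Beside the other collagen I-rich cells of the same library, 4.28%, 6.64%, 2.94% and 4.38% of genes were at least 2-fold higher in the members and 4.38%, 10.0%, 4.05% and 5.72% lower. As the rule chose the members by their counts, these levels are a description. Apart from Ibsp and Sp7, the genes furthest above in all 4 libraries were Spp1, Ifitm5, Mamdc2, Mmp13, Sgms2, Slc8a3, Cdkn1a, Smpd3, Spon1 and Runx2. Sgms2, a sphingomyelin synthase of bone, was at 147, 385, 113 and 209.8 CPM against 13.5, 16.1, 16.7 and 25.1 CPM, and Slc8a3, a sodium-calcium exchanger, at 124, 193, 86.8 and 111 CPM against 12.1, 6.33, 13.2 and 9.65 CPM. Spon1, a matrix protein from the list of dental mesenchyme genes, was at 227, 213, 293 and 183 CPM against 47.8, 37.1, 64.8 and 45.2 CPM.

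Beside the 38 maxillary and 99 mandibular Dspp-high cells at P1, 21.6% and 19.8% of genes were at least 2-fold higher in the members and 11.8% and 9.73% lower. The members were chosen by Ibsp, Sp7, Bglap, Col1a1 and Dspp, and the Dspp-high cells by Dspp and Col1a1. The levels of these genes are therefore a description, and the higher Ibsp and lower Dspp of the members are no separate finding. Highest in the members were Prc1, Sostdc1, Ndnf, Ibsp, Pcp4, Pdzrn4, Igfbp5, Hist1h1b, Gpc5 and Gabrg3, and lowest, after Dspp, were Sh2d4a, Gm30191, Acpp, Ptprr, Nkain2, Gm29521, Fbln7, Dmp1 and 9930111J21Rik2. Igfbp5 was at 2329 and 1557 CPM in the P1 members and 11.4 and 37.6 CPM in the Dspp-high cells, and Ibsp at 2147 and 2976 against 4.16 and 55.2 CPM. Of the bone matrix genes compared, 5 of 20 maxillary and 7 of 21 mandibular ones were higher in the members (Col12a1, Ibsp, Spp1, Mgp and Omd in both, Col22a1 and Fn1 in the mandibular) and 11 and 9 were lower. Of genes lower in the members, Bglap was at 123 and 282 against 3974 and 5102 CPM, Ifitm5 at 247 and 307 against 775 and 679 CPM, Phex at 20.3 and 81.1 against 1708 and 2006 CPM and Col1a1 at 4645 and 8134 against 29095 and 39728 CPM. Of 22 compared genes for collagen processing, 17 and 13 were lower in the members.

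Markers of other cells entered the sums unevenly. The 10 markers of macrophages and other leukocytes summed to 844, 84.2, 9.84 and 141 CPM, led by S100a8, Fcer1g, Lyz2 and Lyz2, and 0, 3, 2 and 0 of them were at 0. In the E15.5 maxillary library 1 cell held all S100a8 UMIs of subcluster 1. The 7 endothelial markers summed to 184, 119, 51.8 and 140.0 CPM with 0 at 0, led by Egfl7 except in the P1 maxillary library. Globin and other erythroid transcripts summed to 9090.4, 9369, 546 and 2141 CPM, led by Hbb-bs. They moved with the stage over all members and their part in the stage results was not tested. In the 14 P1 maxillary cells without shared barcodes the maxillary ratio of Hbb-bs for P1 over E15.5 was 1.12, the opposite direction. The 6 tendon markers summed to 403, 138, 168 and 160.2 CPM, the 6 pericyte markers to 127, 136, 153 and 193 CPM, the 7 muscle markers to 71.5, 21.9, 12.7 and 31.8 CPM and the 6 markers of glia and neurons to 68.2, 37.6, 74.7 and 81.1 CPM. Of epithelial markers, Epcam and Cdh1 were at 0 by the rule, and Amelx, the enamel gene amelogenin, was at 1.35, 0.392, 33.3 and 121 CPM in the members and 0.281, 0, 622 and 1842 CPM in macrophages.

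Genes of dissociation stress summed to 3126, 3009, 3424 and 2397 CPM, and 0 of 10 differed at least 2-fold between stages in the maxillary and 1 (Dnajb1, lower, but with a log2 ratio of 0.073 after thinning) in the mandibular members. Of 18 cell cycle genes, Hmgb2 was higher and Cdkn1c lower at P1 in both jaws, Top2a, Ccnb2, Cenpf and Ube2c were higher in the maxillary and Mki67 in the mandibular members, and Mcm3 was lower in the mandibular ones. In the 14 P1 maxillary cells without shared barcodes the maxillary ratios turned to -1.92 for Hmgb2, -2.29 for Ube2c, -0.24 for Cenpf and -0.16 for Top2a. Of 20 genes of glycolysis and oxidative metabolism, 0 were higher and Slc2a1, the glucose carrier, and Aldoa lower in both jaws, with Pgk1 lower in the maxillary members. Slc2a1 was at 41.2, 25.5, 9.26 and 9.51 CPM.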

How the data were processed

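Single-cell suspensions of molar tooth organs, 6 pooled per library, were profiled with the 10x Genomics 3′ assay. The authors aligned reads and counted UMIs with Cell Ranger 7.0.1 on mm10, per the submitters' processing notes, and deposited matrices of raw UMI counts for 32285 genes. The 4 matrices held 56940 barcodes, of which 42164 were kept. Counts of members were summed per library and divided by their total (CPM). Counting intervals were exact at 95% (Poisson for levels, conditional binomial for ratios, Clopper-Pearson for shares). With 1 library a group no test was made. Genes were counted at a 2-fold difference with 20 CPM in the higher group, and a group at 0 was set to 3 counts over the group and given as a bound. Genes named by rank had at least 50 CPM in the higher group and the largest smaller ratio over the libraries compared, leaving out mitochondrial, ribosomal, hemoglobin and sex-linked genes. Subclusters came from Leiden clustering at resolution 0.5 (scanpy 1.11.5) on 1000 variable genes, 15 components and 15 neighbours, and leading genes had at least 100 CPM. Doublets were kept, and leaving out 0.8% per 1000 barcodes by Scrublet score was an alternative. The counts and ratios were tested on sums simulated with counting error alone. The simulation had no variation between cells, so it does not cover genes of which 1 cell held a large part. Promoter sequences were RefSeq's (GRCm38.p6), found for 4 of 5 genes looked up. The members and all gene lists were chosen with earlier results of these data known. Alternatives were the limits on UMIs, mitochondrial share, markers, Dspp and level, the shared barcodes, doublets, thinning to 3000 UMIs and the mean over cells. A gene of the lists is not reported by name here.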

Additional observations from a re-analysis of the deposited data

Results flagged for a closer look

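In the comparison of stages, 3 named genes were at least 2-fold different in opposite directions in the jaws, and the difference between the jaws was not tested, since each group had 1 library. Dkk2, which modulates Wnt signalling, had a log2 ratio of later over earlier stage of -1.55 in the maxillary and 1.36 in the mandibular members, Phex of -1.05 and 1.34, and Lyz2, a lysozyme of leukocytes, of -4.32 and 3.08. Without the richest cell of the library with the higher level, the maxillary ratio of Phex was 1.57 and the mandibular ratio of Lyz2 -0.10, so for these genes the opposite directions rested on 1 cell each. With the shared barcodes dropped the maxillary ratio of Phex was 0.14. In the comparison of jaws, Emcn, an endothelial sialomucin, had a log2 ratio of maxillary over mandibular members of 1.42 in the E15.5 and -2.36 in the P1 libraries, and Lyz2 of 3.88 and -3.51. These directions turned under several alternatives. At P1 the ratio of Emcn was 0.46 with the shared barcodes dropped from both libraries, 0.79 without the highest doublet scores and 0.84 without cells with 5 or more leukocyte or endothelial UMIs. That of Lyz2 was 0.22 at P1 with the shared barcodes dropped, 0.0088 at P1 after thinning, and -0.19 at E15.5 without the leukocyte or endothelial cells. Among the barcodes left out of the P1 mandibular library because the P1 maxillary library held them too, 32 passed the rule for members.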

How the results depend on the processing

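With at least 8 UMIs of Ibsp, Sp7 and Bglap the members numbered 76, 101, 172 and 133, after thinning each barcode to 3000 UMIs before the rule 25, 44, 29 and 42, and without the highest doublet scores 178 and 142 in the P1 libraries. Keeping the shared barcodes gave 233 P1 mandibular members, and dropping them from both libraries left 14 P1 maxillary members. Genes at least 2-fold higher and lower are given in the order stage in the maxillary, stage in the mandibular, jaw at E15.5 and jaw at P1. Compared from 50 CPM they were 239 and 167, 342 and 136, 209 and 67, 24 and 38, and with no limit but 10 UMIs in all 1249 and 945, 1875 and 666, 1221 and 596, 547 and 756. After thinning they were 825 and 1046, 855 and 383, 693 and 403, 540 and 843. With the shared barcodes dropped from both libraries the stage counts in the maxillary were 1078 and 1229 and the jaw counts at P1 1025 and 1181. Without the highest doublet scores 457 genes were lower at P1 in the mandibular members and 125 were higher in the maxillary members at P1, and with at least 8 marker UMIs the latter were 117. Limits of 5% mitochondrial UMIs, 2000 UMIs per barcode, or 0 Dspp UMIs kept every count of members and of genes within 1.5 times, and the mean over cells did so for the counts of genes. Of 5735 values for the 155 named genes under the alternatives, 73 were counted as having the opposite direction. This count does not hold every change of sign. The ratio of Ibsp for the stage in the maxillary members also changed sign, to 0.13, without its richest cell and is not among the 73. The 73 log2 ratios are listed by alternative. With the shared barcodes dropped from both P1 libraries it was for the stage in the maxillary members 0.65 (Adam12), 0.68 (Bnc2), 0.16 (C1qa), 0.26 (Ccl2), -0.24 (Cenpf), 0.54 (Col2a1), 0.47 (Col5a1), -0.32 (Gabrg3), 0.32 (Gpx3), 1.12 (Hbb-bs), -1.92 (Hmgb2), -0.66 (Id1), 0.15 (Lox), 1.76 (Mmp13), 1.75 (Mmp9), 0.44 (Ndufa4l2), 0.14 (Phex), 0.90 (Slc13a5), -0.16 (Top2a), -2.29 (Ube2c) and -0.59 (Wif1). It was also for the jaw at P1 0.45 (Adam12), -0.74 (Cntn6), 1.15 (Col11a2), 1.19 (Col1a2), 1.07 (Col22a1), 1.88 (Col2a1), 0.092 (Dmp1), 0.41 (Egfl7), 0.46 (Emcn), 0.64 (Fcer1g), 3.06 (Hbb-bs), 0.22 (Lyz2), 1.49 (Mmp13), 0.51 (Sdf2l1), 1.24 (Slc13a5) and -0.89 (Tenm2). After thinning it was for the stage in the maxillary members 1.15 (Col2a1), 3.09 (Mmp13) and 4.44 (Mmp9). It was also for the stage in the mandibular members 0.47 (Adam12), -0.56 (Dlx5), 0.073 (Dnajb1), 0.045 (Gpx3), 0.39 (Hand2), 0.45 (Mmp13), 0.10 (Nav3), 0.76 (Plxna2) and -1.78 (Wnt10a). Likewise it was for the jaw at E15.5 -0.45 (Dlx2) and -0.32 (Pcp4). Last it was for the jaw at P1 0.32 (Col2a1), 0.59 (Fcer1g), 1.91 (Hbb-bs) and 0.0088 (Lyz2). Without the highest doublet scores it was for the stage in the maxillary members 0.92 (Emcn). It was also for the jaw at P1 0.68 (Acan), 2.37 (Col22a1), 1.11 (Col9a1), 0.37 (Egfl7) and 0.79 (Emcn). With each cell weighed alike it was for the jaw at E15.5 0.055 (Bglap) and 0.42 (Mmp13). With the 5% mitochondrial limit it was for the stage in the maxillary members 1.55 (Phex). Without cells with 5 or more leukocyte or endothelial UMIs it was for the stage in the maxillary members 0.94 (Emcn) and 1.62 (Fcer1g). It was also for the stage in the mandibular members -0.091 (Lyz2). Likewise it was for the jaw at E15.5 -0.19 (Lyz2). Last it was for the jaw at P1 0.42 (Egfl7) and 0.84 (Emcn). Without the richest cell of the library with the higher level it was for the stage in the maxillary members 1.57 (Phex). It was also for the stage in the mandibular members -0.10 (Lyz2). Likewise it was for the jaw at E15.5 -1.51 (Ccl2). The cause was not tested. The P1 maxillary values with the shared barcodes dropped rest on 14 cells, and those after thinning on 25 to 44 cells a library. Leaving out leukocyte or endothelial cells, the richest cell, the finer subclusters and the split by Spp1 and Ifitm5 were chosen after seeing the data. No paired analysis was possible because the groups share no more than 1 replicate number. With 1 library a group there was no replicate to leave out.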
